A study of Mus musculus with 12 samples.

Results

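The messenger RNAs (mRNAs) described here encode neurexins, neuroligins and LRRTMs, cell adhesion proteins that hold the 2 sides of a synapse together. The 9 genes Nrxn2, Nrxn3, Nlgn1, Nlgn2, Nlgn3, Lrrtm1, Lrrtm2, Lrrtm3 and Lrrtm4 were chosen by gene symbol from the 55573 genes of the count table. Earlier results of these data were known at that time. Neurexins sit mainly in the presynaptic membrane and bind partners across the cleft. Neuroligins and LRRTMs (leucine-rich repeat transmembrane proteins) are postsynaptic partners of the neurexins, and the family is known for organizing excitatory and inhibitory synapses in the hippocampus. The cytoplasmic proteins YTHDF1, YTHDF2 and YTHDF3 recognize N6-methyladenosine (m6A), a methylated adenosine in mRNA.

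RNA immunoprecipitation with sequencing (RIP-seq) was performed on hippocampal neurons of C57BL/6 mice, an inbred strain, taken at birth and kept in culture for 14 days. The labels name no treatment or allele that differs between the 4 groups. The Input libraries held total RNA of the lysate, and the YTHDF1 RIP, YTHDF2 RIP and YTHDF3 RIP libraries held RNA recovered with an antibody to the endogenous protein, with 3 libraries in each group. Neurons of single litters were pooled across sexes, and cytosine arabinoside was given against dividing glia, so each library represents a pooled culture. The comparisons ask which of these mRNAs each RIP recovered above its level in Input, and whether the 3 RIPs differed. A pulldown with a control antibody was not analysed here.

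Levels are given as normalized CPM, the counts relative to library size (CPM) after scaling with TMM factors (trimmed mean of M values). An mRNA was called enriched in a RIP at a fold change over Input of at least 1.25 (0.32 on the log2 scale) when its p from edgeR's quasi-likelihood test, adjusted by the method of Benjamini and Hochberg over all genes tested, did not exceed 0.05. Between RIPs the fold change had to reach 2. All 9 mRNAs passed the filter on low counts, as did 17126 genes in all. The p-values rest on the spread between libraries that edgeR estimates across genes, since an exact permutation test of 3 against 3 libraries could not fall below p = 0.1.

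The total count per library ranged from 6020072 in the YTHDF2 RIP to 38909592 in the YTHDF1 RIP. Markers of neurons were present in every library. The summed level of 5 of them (Rbfox3, Tubb3, Syt1, Snap25, Map2) was 2360 to 3320 CPM in Input, 3770 to 6570 with YTHDF1, 1630 to 2360 with YTHDF2 and 2810 to 5290 with YTHDF3. Markers of glia differed between libraries of one group. The sum of 4 astrocyte markers (Gfap, Aqp4, Aldh1l1, Slc1a3) was 248, 1130 and 2420 CPM in Input replicates 1, 2 and 3, and 184, 729 and 1430 CPM in the YTHDF3 RIP. In the YTHDF1 RIP it was 250, 1130 and 676 CPM, and in the YTHDF2 RIP 545, 1240 and 959 CPM. The sum of 3 markers of oligodendrocyte precursors (Pdgfra, Cspg4, Olig2) was 8.75, 150 and 158 CPM in Input. Every library of the YTHDF1 RIP (256, 187 and 504 CPM) and of the YTHDF2 RIP (277, 263 and 414 CPM) was above that. In the YTHDF3 RIP it was 11.6, 282 and 309 CPM. Markers of microglia summed to at most 6 CPM in Input and those of mature oligodendrocytes to at most 22.1 CPM. Each replicate's lysate was, by the study's methods, divided among the 3 pulldowns beside a common input, yet the astrocyte sum ranked the replicate numbers as in Input only in the YTHDF3 RIP. In such bulk libraries fewer cells of a type and less RNA per cell cannot be told apart. In a RIP library the sum also depends on how much of the marker mRNAs the antibody recovered, which cannot be separated from these.

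In Input, the 9 mRNAs covered a wide range of levels per length. Per kilobase of annotated exon, Nrxn2 (37.3 ± 3.81 CPM per kb, mean ± SD, n = 3) and Nlgn2 (35.9 ± 3.88) were the most abundant, and the ranges of their libraries overlapped. Nlgn3 came next at 23.55 ± 1.46 CPM per kb, below both in every library. Lrrtm1 (11.7 ± 2.02), Nlgn1 (8.30 ± 1.32) and Nrxn3 (7.17 ± 3.05) followed, with each overlapping its neighbour in that order. Lrrtm2 (3.52 ± 0.657), Lrrtm4 (2.095 ± 0.835) and Lrrtm3 (1.34 ± 0.348) were the lowest, again with overlapping neighbours, Nrxn3 included. The order was different in the YTHDF1 RIP, where Nlgn3 stood first at 192.6 ± 34.0 CPM per kb, with a range that overlapped that of Nlgn2 (153 ± 50.7). Lrrtm4, at 21.7 ± 6.04 CPM per kb, was there above every library of Lrrtm2 and Lrrtm3.

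To show the sequence context in which a reader of m6A could meet these mRNAs, 1 coding transcript per gene was searched. It was the longest complete one in GENCODE M21 (build GRCm38), and other isoforms were not searched. The search was on the sense strand for GGACT, a common core of the m6A consensus. The motif occurred between 2 times (Lrrtm3) and 10 times (Nlgn2) per transcript, and 92.6% of 13396 tested genes with a coding transcript held at least 1. Per kilobase, Lrrtm1 held 2.36 and Nlgn2 1.80 copies, and Nlgn1 held 0.42, against a median of 1.04 over those genes. The GGACT nearest to the stop codon, among copies whose shown bases lie within 1 exon, is in capitals with 10 bases on each side. It is shown for Nlgn3 and Lrrtm4, the mRNAs with the highest fold changes in the YTHDF1 RIP. It is also shown for Lrrtm3, a paralog of Lrrtm4 that was called in no RIP in the unpaired fit. Nlgn2 and Lrrtm1, which carry it close behind the stop codon, are shown as well.
Nlgn3: tctggctctgGGACTcccaatgttc
Lrrtm4: aatactacgtGGACTacaaaccgac
Lrrtm3: agactgagctGGACTtgagcacaat
Nlgn2: gcagggaggaGGACTtggcaccggg
Lrrtm1: gcgggcaccaGGACTggtctcctct
The site of Nlgn3 lies in the 3′ untranslated region, 534 bases past the stop codon (chrX:101320787-101320811, + strand). Those of Nlgn2 (chr11:69825123-69825147, − strand) and Lrrtm1 (chr6:77245191-77245215, + strand) lie 65 and 70 bases past it. The sites of Lrrtm4 (chr6:80023057-80023081, + strand) and Lrrtm3 (chr10:63930104-63930128, − strand) lie in the last 100 and 61 bases of the coding sequence. Lrrtm4 and Lrrtm3 both hold the letters near the end of the coding sequence. Lrrtm4 holds 5 copies with 4 in the 3′ untranslated region, and Lrrtm3 holds 2 with 0 there. Lrrtm2, called in no RIP in the unpaired fit, holds 8 copies with 4 there. Nrxn2, called in all 3 RIPs in that fit, holds 7 with 0 there. A match to GGACT is a description of the sequence. No methylation was measured in these libraries.

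YTHDF1 pulled down most of the family. Of the 9 mRNAs, 7 were enriched in the YTHDF1 RIP and none was depleted, where 27.2% of all genes tested were called enriched and 25.8% depleted. The median log2 fold change of the 9 was 1.59, against 0.02 over all genes tested. In all 3 YTHDF1 libraries, 6 of the 9 mRNAs were above all 3 Input libraries, an arrangement found for 27.9% of all genes. Lrrtm4 and Nlgn3 had the highest fold changes, 10.3-fold and 8.18-fold.

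Among the presynaptic neurexins, Nrxn2 (chr19:6418731-6544169, + strand) was the more evenly measured. Its level was 576, 491 and 479.6 CPM in Input and 1317, 1250 and 1847 CPM in the YTHDF1 RIP. It was 833.5, 687 and 928 CPM in the YTHDF2 RIP and 913, 959 and 793 CPM in the YTHDF3 RIP. Every RIP library was above every Input library, and every YTHDF1 library was above those of the other RIPs. The log2 fold change over Input was 1.51 ± 0.21 (SE) in the YTHDF1 RIP (adjusted p = 0.000161).

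Nrxn3 (chr12:88722876-90334935, + strand), a neurexin gene that spans 1612.1 kb, varied more within groups. Its level was 127, 93.6 and 50.45 CPM in Input and 473, 368 and 1034 CPM in the YTHDF1 RIP. It was 115, 64.2 and 197 CPM in the YTHDF2 RIP and 229.7, 183 and 93.98 CPM in the YTHDF3 RIP. Only the YTHDF1 libraries lay clear of Input, with a log2 fold change of 2.79 ± 0.55 (adjusted p = 0.0013).

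The 3 neuroligin mRNAs were all enriched in the YTHDF1 RIP. Nlgn1 (chr3:25426215-26332460, − strand) encodes the neuroligin found mainly at excitatory synapses. Its level was 132, 99.5 and 103 CPM in Input, 254, 335 and 418 CPM with YTHDF1, 119, 143.5 and 155 CPM with YTHDF2, and 214, 178 and 159 CPM with YTHDF3. The YTHDF2 range overlapped that of Input, and the other RIPs were above it. Nlgn1 was enriched in the YTHDF1 RIP by a log2 fold change of 1.59 ± 0.22 (adjusted p = 0.000147).

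Nlgn2 (chr11:69823122-69837784, − strand) encodes the neuroligin of inhibitory synapses. Its level was 233, 199 and 191 CPM in Input and 916, 578 and 1163 CPM in the YTHDF1 RIP. It was 343, 324 and 519 CPM in the YTHDF2 RIP and 495, 515.5 and 431 CPM in the YTHDF3 RIP. All 9 RIP libraries were above all Input libraries. Its log2 fold change in the YTHDF1 RIP was 2.09 ± 0.28 (adjusted p = 9.98e-05), and its fold changes in the other RIPs were the highest of the 9 mRNAs.

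Nlgn3 (chrX:101299168-101325963, + strand) encodes a neuroligin found at both kinds of synapse. Its level was 229.7, 222 and 203 CPM in Input and 1643, 1568 and 2147 CPM in the YTHDF1 RIP. It was 339, 323 and 354 CPM with YTHDF2 and 388, 374 and 313 CPM with YTHDF3. The lowest YTHDF1 library was thus above every library of the other groups, while the YTHDF2 and YTHDF3 libraries overlapped each other. The log2 fold change in the YTHDF1 RIP was 3.03 ± 0.20 (adjusted p = 2.11e-06), the 308th highest of the 17126 genes tested.

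Part of the Nlgn3 count is shared with another annotated gene. The long non-coding RNA gene Gm21986 covers 3823 bases (41.2%) of the Nlgn3 exons on the same strand, and reads in that stretch were counted for both genes. Gm21986 counts amounted to between 48.3% and 70.6% of the Nlgn3 count across libraries. Gm21986 was itself enriched in the YTHDF1 RIP (log2 fold change 2.67 ± 0.20, adjusted p = 4.02e-06 in edgeR). Taking every Gm21986 read away from Nlgn3 left, as the least that can belong to Nlgn3 alone, 70.6 ± 10.3 CPM in Input and 847 ± 104 CPM in the YTHDF1 RIP (mean ± SD, n = 3 each). The ratio of those means was 12, with 766 CPM in the lowest YTHDF1 library against 80.4 CPM in the highest Input library. The YTHDF2 and YTHDF3 RIPs held 115 ± 9.09 and 118 ± 12.8 CPM of such counts, ratios of 1.63 and 1.68.

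**Figure D1:**
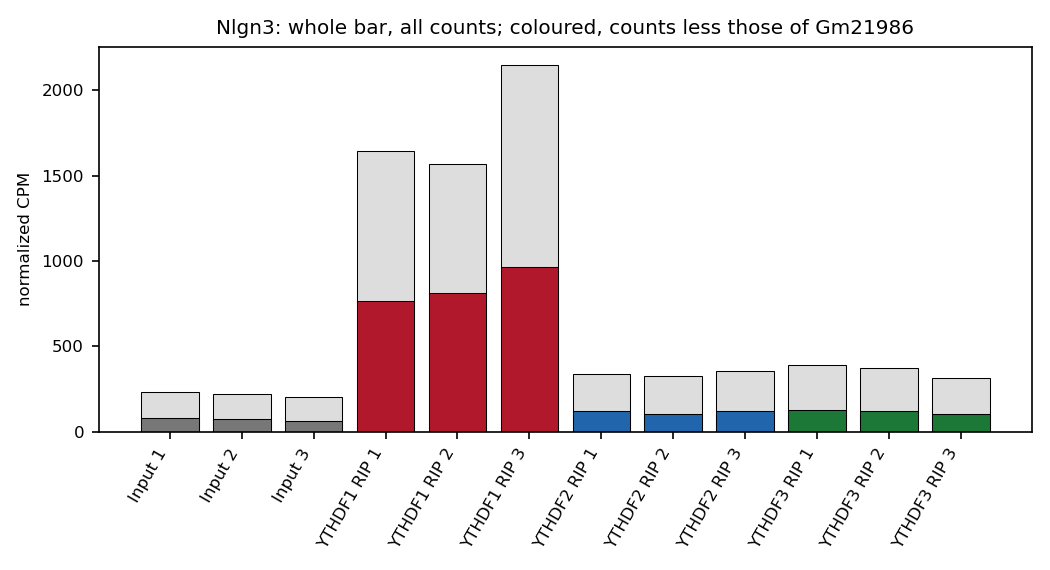
Nlgn3 in every library, in normalized CPM on a linear axis from 0. The whole bar is the level from all counts and the coloured part is the level after subtraction of all counts of the overlapping gene Gm21986, which was 766 to 965 CPM in the YTHDF1 RIP and at most 129 CPM elsewhere.

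The 4 LRRTM mRNAs differed widely in their values. Lrrtm4 (chr6:80018877-80810143, + strand) encodes an LRRTM that binds heparan sulfate proteoglycans. Its level was 13.2, 17.9 and 7.605 CPM in Input and 171, 132 and 96.45 CPM in the YTHDF1 RIP. It was 21.3, 11.2 and 14.4 CPM in the YTHDF2 RIP and 22.98, 19.5 and 12.6 CPM in the YTHDF3 RIP. The YTHDF1 libraries stood above all the rest, whereas the YTHDF2 and YTHDF3 libraries overlapped Input. The log2 fold change in the YTHDF1 RIP was 3.36 ± 0.38 (adjusted p = 3.96e-05), the 225th highest of all genes tested. An antisense gene, Gm4409, shares 25.1% of the Lrrtm4 exons on the opposite strand, with at most 32 counts in a library against 71 to 2660 for Lrrtm4.

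Lrrtm1 (chr6:77242689-77257791, + strand), an organizer of excitatory synapses, was enriched in the YTHDF1 RIP with 1 library that did not follow. Its level was 41.9, 35.0 and 29.7 CPM in Input and 120.7, 39.9 and 90.75 CPM in the YTHDF1 RIP, so that YTHDF1 replicate 2 fell within the Input range. It was 65.3, 49.0 and 79.3 CPM in the YTHDF2 RIP and 64.0, 59.96 and 49.0 CPM in the YTHDF3 RIP, all above Input. The log2 fold change in the YTHDF1 RIP was 1.24 ± 0.34 (adjusted p = 0.0096), and the call was lost with library size alone as the scaling (0.89, adjusted p = 0.0539) and in a fit of the YTHDF1 and Input libraries alone (1.15, adjusted p = 0.0581). The gene lies inside Ctnna2, on the opposite strand.

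Lrrtm2 and Lrrtm3 were called enriched in no RIP without pairing, as were 66.1% of all genes tested, and Lrrtm3 passed with YTHDF3 in the paired fit given below. Lrrtm2, which encodes a neurexin receptor of excitatory synapses, stood at 24.5, 22.25 and 16.8 CPM in Input and at 22.9, 23.1 and 47.8 CPM in the YTHDF1 RIP. It stood at 11.04, 7.91 and 21.7 CPM in the YTHDF2 RIP and at 27.5, 24.8 and 14.8 CPM in the YTHDF3 RIP. Only YTHDF1 replicate 3 was above the Input range, and YTHDF2 replicates 1 and 2 were below it. Its log2 fold changes were 0.57 ± 0.40, −0.64 ± 0.40 and 0.07 ± 0.40 with YTHDF1, YTHDF2 and YTHDF3, none past the threshold (adjusted p = 0.252, 0.243 and 0.899).

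Lrrtm3 (chr10:63928472-64090277, − strand), which lies inside Ctnna3 on the opposite strand, had the lowest counts of the family, 19 to 362 per library. Its level was 6.09, 6.955 and 4.07 CPM in Input, 13.4, 5.28 and 13.1 CPM with YTHDF1, 4.52, 2.84 and 8.27 CPM with YTHDF2, and 9.06, 6.85 and 5.95 CPM with YTHDF3. YTHDF1 replicates 1 and 3 were above every Input library and replicate 2 was not. The log2 fold change in the YTHDF1 RIP was 0.88 ± 0.42 (adjusted p = 0.0967, 95% interval −0.04 to 1.80), and Lrrtm3 passed the threshold without YTHDF1 replicate 2 (1.14, adjusted p = 0.0228). In 6 of the 9 mRNAs, YTHDF1 replicate 2 was the lowest of the YTHDF1 libraries.

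**Figure D2:**
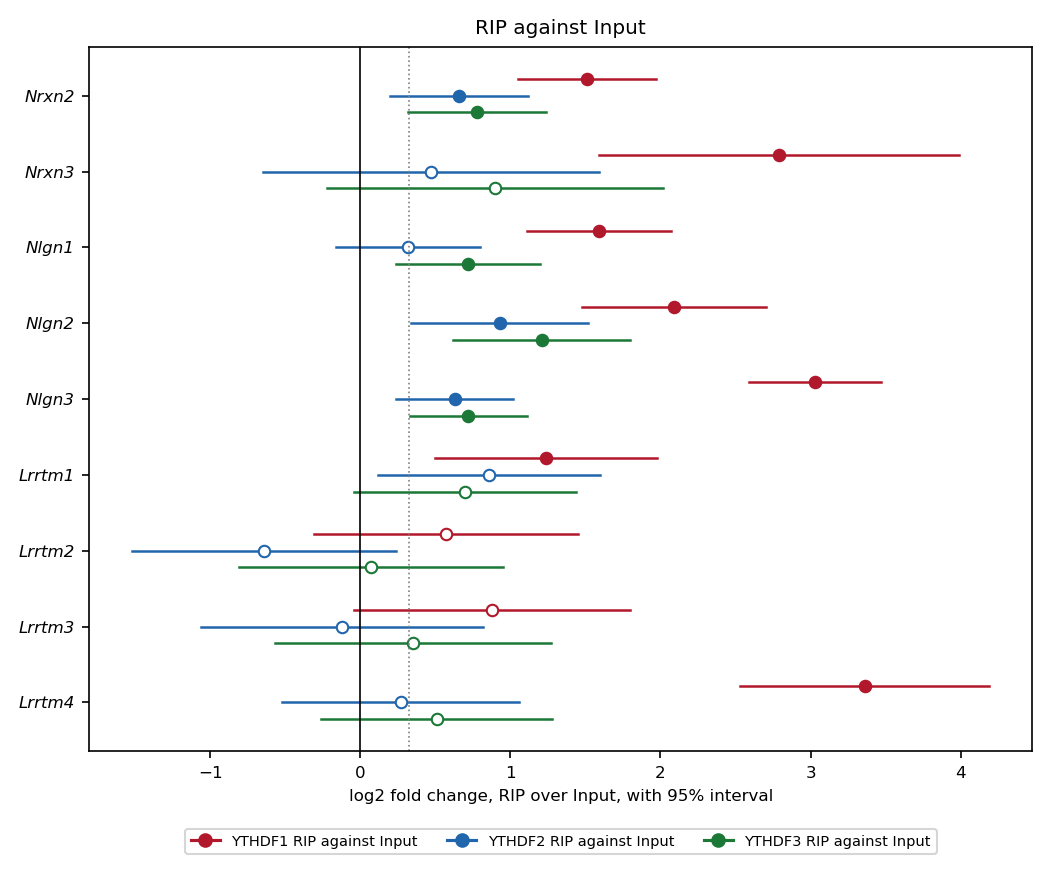
Log2 fold change over Input of each mRNA in each RIP (horizontal axis), as points with 95% intervals from edgeR. Filled points were called enriched and the dotted line marks the fold change of 1.25. The YTHDF1 values of Nlgn3 (3.03) and Lrrtm4 (3.36) lay apart from their YTHDF2 and YTHDF3 values, whereas the values of Lrrtm1 overlapped across RIPs.

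Fewer of the mRNAs were enriched with YTHDF2, and by less. Of the 9 mRNAs, 3 were called, where 15.7% of all genes tested were enriched. These were Nlgn2 (log2 fold change 0.93 ± 0.27, adjusted p = 0.0193), Nrxn2 (0.66 ± 0.21, adjusted p = 0.0302) and Nlgn3 (0.63 ± 0.18, adjusted p = 0.0193). All 3 YTHDF2 libraries were above all Input libraries for these and for Lrrtm1, which missed the threshold (0.86 ± 0.34, adjusted p = 0.0681); 25.3% of all genes showed such an arrangement. The median over the 9 mRNAs was 0.47, against 0.02 for all genes. These calls were close to the threshold, and 0 remained without Input replicate 2, Input replicate 3 or YTHDF2 replicate 3, and 1 without YTHDF2 replicate 1. Lrrtm1 was called without YTHDF1 replicate 1 (adjusted p = 0.0426) or YTHDF1 replicate 2 (adjusted p = 0.0108), which enter through the shared spread.

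YTHDF3 enriched 4 of the 9 mRNAs, where 16.4% of all genes tested were enriched. They were Nlgn2 (log2 fold change 1.21 ± 0.27, adjusted p = 0.00408), Nrxn2 (0.78 ± 0.21, adjusted p = 0.0118), Nlgn1 (0.72 ± 0.22, adjusted p = 0.0212) and Nlgn3 (0.72 ± 0.18, adjusted p = 0.00881). The median over the 9 mRNAs was 0.72, against 0.05 for all genes, and 5 of the 9 had all YTHDF3 libraries above all Input libraries, as did 26.6% of all genes. Nlgn1 lost its call without Input replicate 2 (0.64, adjusted p = 0.0831), Input replicate 3 (0.68, adjusted p = 0.061) or YTHDF3 replicate 1 (0.60, adjusted p = 0.0756), and Lrrtm1 (0.70 ± 0.34, adjusted p = 0.122) gained one without YTHDF1 replicate 2 (adjusted p = 0.0161). The labels do not tie the replicate number to a lysate. Same-numbered YTHDF3 RIP and Input libraries deviated alike from their group means (r = 0.528 to 0.829). A fit of these 2 groups with the replicate as a block thus assumed a pairing seen in these same libraries. It called 8 of the 9 mRNAs, where it called 36.3% of all genes. In that paired fit Nrxn3 (0.96 ± 0.10, adjusted p = 5.93e-09), Lrrtm1 (0.76 ± 0.10, adjusted p = 5.03e-07), Lrrtm4 (0.58 ± 0.13, adjusted p = 0.000271) and Lrrtm3 (0.40 ± 0.16, adjusted p = 0.0291) passed as well, and Lrrtm2 (0.11 ± 0.11, adjusted p = 0.355) did not.

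In the fit of all 12 libraries without pairing, Nrxn2, Nlgn2 and Nlgn3 were enriched with all 3 proteins, a pattern of 8.45% of all genes tested. Nlgn1 was enriched with YTHDF1 and YTHDF3, and Nrxn3, Lrrtm1 and Lrrtm4 passed the threshold with YTHDF1 alone. In the paired fit of the YTHDF3 RIP and Input, Nrxn3, Lrrtm1, Lrrtm3 and Lrrtm4 passed with YTHDF3 as well. In unpaired fits of each RIP and Input alone, Lrrtm1 passed with YTHDF2 (0.86, adjusted p = 0.0169) and YTHDF3 (0.75, adjusted p = 0.0141). It missed the threshold there with YTHDF1 (1.15, adjusted p = 0.0581). These patterns thus hold for the unpaired fit of all 12 libraries only. These comparisons share the Input libraries. Whether recovery differed was therefore tested between the RIP libraries directly. Each protein had its own antibody, so a difference between proteins and a difference between pulldowns cannot be told apart.

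Between YTHDF1 and YTHDF2, 6 of the 9 mRNAs were higher with YTHDF1, where 11.4% of all genes tested were. All YTHDF1 libraries were above all YTHDF2 libraries for 7 of the 9, as for 20.4% of all genes. The 6 called higher were Lrrtm4 (log2 fold change 3.09 ± 0.38, adjusted p = 0.000169), Nlgn3 (2.40 ± 0.19, adjusted p = 2.24e-05), Nrxn3 (2.32 ± 0.54, adjusted p = 0.00774), Nlgn1 (1.27 ± 0.22, adjusted p = 0.00148), Lrrtm2 (1.21 ± 0.41, adjusted p = 0.0467) and Nlgn2 (1.16 ± 0.27, adjusted p = 0.00759). Lrrtm2 was thus higher with YTHDF1 than with YTHDF2 although neither differed from Input past the threshold, and its call was lost when any 1 of 8 libraries was left out (each Input library, YTHDF1 replicate 3, YTHDF2 replicates 1 and 2, YTHDF3 replicates 1 and 2), with adjusted p from 0.0511 to 0.255. Without YTHDF1 replicate 3 the count was 3, as Nlgn1 (1.00) and Nlgn2 (0.86) then fell under the fold change of 2. With library size alone it was also 3, where 6.24% of all genes were higher. Nlgn1 then stood at 0.78, Nlgn2 at 0.72 and Lrrtm2 at 0.74. In a fit of both groups alone Nlgn2 missed the threshold (1.12, adjusted p = 0.0602). With the replicate block in that fit, Nlgn2 (1.09, adjusted p = 0.0134) and Lrrtm2 (1.19 ± 0.19, adjusted p = 0.00608) were both called. With the block in the fit of all 12 libraries Lrrtm2 was not (1.22, adjusted p = 0.0606). Nrxn2 passed the adjusted p (0.0114) but not the fold change, at 0.85 ± 0.21. Lrrtm3 (1.01 ± 0.43, adjusted p = 0.108) passed without YTHDF1 replicate 2 (1.28, adjusted p = 0.024) or YTHDF2 replicate 3 (1.52, adjusted p = 0.0354). For Lrrtm1 no difference was found (0.37 ± 0.33, 95% interval −0.35 to 1.09).

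Between YTHDF1 and YTHDF3, 3 of the 9 mRNAs were higher with YTHDF1, where 10.8% of all genes tested were. For 6 of the 9 the YTHDF1 libraries all lay above those of YTHDF3, as for 20.9% of all genes. The 3 called higher were Lrrtm4 (log2 fold change 2.86 ± 0.37, adjusted p = 0.000387), Nlgn3 (2.32 ± 0.19, adjusted p = 2.59e-05) and Nrxn3 (1.89 ± 0.53, adjusted p = 0.0248). The call of Nrxn3 was lost without YTHDF1 replicate 3 (1.19, adjusted p = 0.125), YTHDF3 replicate 2 (1.93, adjusted p = 0.0725) or YTHDF3 replicate 3 (1.59, adjusted p = 0.0864). It was lost in 8 of 24 alternatives in all, among them library size alone (1.17, adjusted p = 0.0657) and the fits of both groups without (1.70, adjusted p = 0.0638) and with the replicate block (1.60, adjusted p = 0.189). Nlgn2 (0.88 ± 0.27), Nlgn1 (0.87 ± 0.22) and Nrxn2 (0.73 ± 0.21) differed at adjusted p values of 0.0346, 0.0154 and 0.0291 but by less than 2-fold, and Nlgn1 reached the fold change without YTHDF1 replicate 1 (1.04, adjusted p = 0.00534). Lrrtm1, Lrrtm2 and Lrrtm3 stood at 0.54 ± 0.33, 0.49 ± 0.39 and 0.54 ± 0.41, with intervals that included 0.

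Between YTHDF2 and YTHDF3 none of the 9 mRNAs was called, where 3.95% of all genes tested were higher with YTHDF2 and 1.16% lower. In edgeR 0 of the 9 had an unadjusted p under 0.05, and DESeq2 called 0. The log2 fold changes ran from −0.72 ± 0.40 for Lrrtm2 (95% interval −1.60 to 0.16) to 0.16 ± 0.33 for Lrrtm1 (−0.56 to 0.88). For Nlgn3 the interval was the narrowest, −0.47 to 0.31, and for Nrxn3 it reached from −1.55 to 0.69, so differences of more than 2-fold were within the error for Nrxn3, Lrrtm2 and Lrrtm3.

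**Figure D3:**
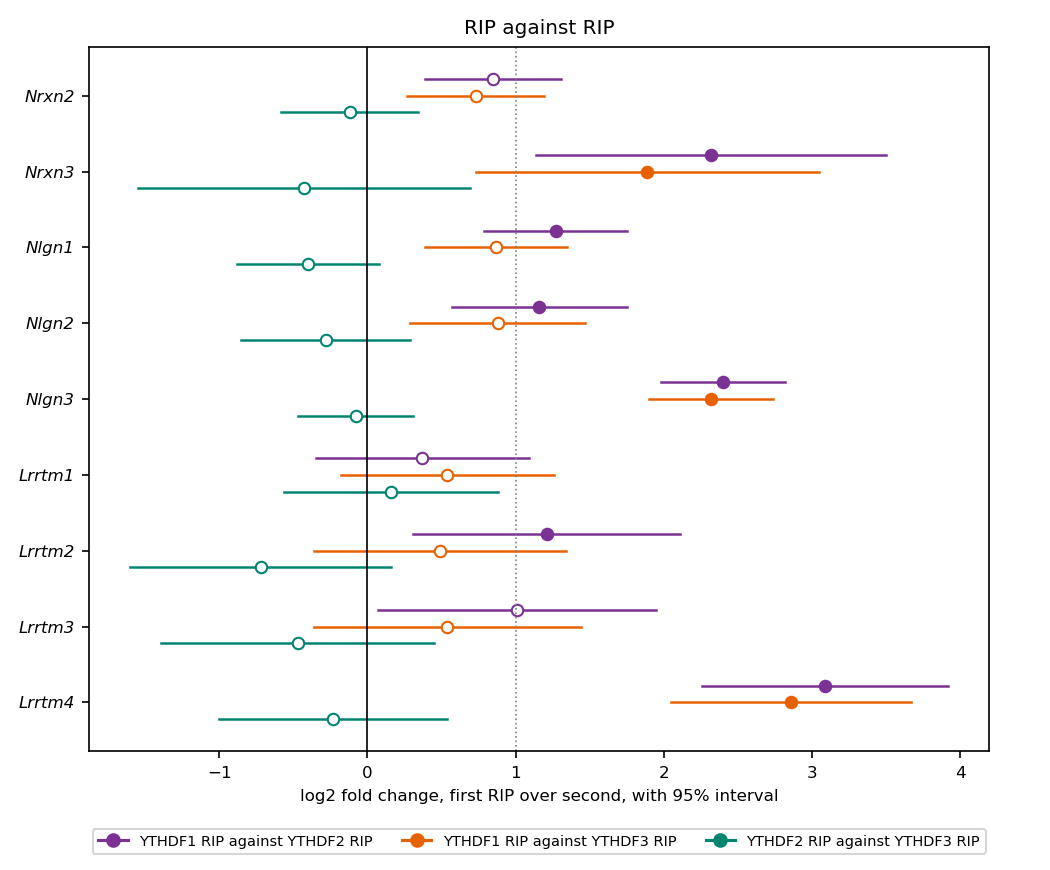
Log2 fold change between RIPs of each mRNA (horizontal axis), as points with 95% intervals from edgeR. Filled points were called different and the dotted line marks a fold change of 2. The YTHDF1 RIP exceeded both other RIPs for Nrxn3, Nlgn3 and Lrrtm4, and every YTHDF2 against YTHDF3 interval included 0.

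The neuronal marker sum was higher in every YTHDF1 library than in every Input library, and so was the sum of oligodendrocyte precursor markers, as given above. Across the 3 Input libraries, where the precursor sum ran from 8.75 to 158 CPM, Nlgn3 stood between 203 and 229.7 CPM and Lrrtm4 between 7.605 and 17.9 CPM. In the YTHDF2 RIP the precursor sum reached 263 to 414 CPM while Nlgn3 stood at 323 to 354 CPM and Lrrtm4 at 11.2 to 21.3 CPM. Nrxn3 fell over Input replicates 1, 2 and 3 (127, 93.6 and 50.45 CPM), where the astrocyte sum rose (248, 1130 and 2420 CPM). It fell over the YTHDF3 RIP replicates as well (229.7, 183 and 93.98 CPM), where that sum rose (184, 729 and 1430 CPM). The part of the marker genes' cell types in the enrichment was not tested.

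Length moved with the enrichment. Across the 17126 genes tested, the Spearman correlation of the log2 fold change with exonic length was 0.459, 0.379 and 0.519 with YTHDF1, YTHDF2 and YTHDF3, a description across genes that share libraries. The 9 mRNAs lay between the 38.7th percentile of exonic length (Lrrtm1, 3.033 kb) and the 96.8th (Nrxn2, 13.812 kb), with Nlgn1 and Nrxn3 also above the 95th. With the length trend of each library removed, 5 of the 9 mRNAs were enriched with YTHDF1, where 22.2% of all genes were. Nrxn2 (log2 fold change 0.33, adjusted p = 0.137) and Nlgn1 (0.43, adjusted p = 0.0904) were no longer called, whereas Lrrtm4 (2.97), Nlgn3 (2.25), Nlgn2 (1.73), Nrxn3 (1.67) and Lrrtm1 (1.42) were. With YTHDF2 the count went from 3 to 0, where 13% of all genes were called, and with YTHDF3 from 4 to 1, where 15.2% were. Nlgn2 (0.98) was the one that passed with YTHDF3. Between RIPs, removing the length trend left 4 of the 6 mRNAs higher with YTHDF1 than with YTHDF2, where 9.13% of all genes were, as Nlgn1 (0.55, adjusted p = 0.0556) and Lrrtm2 (1.04, adjusted p = 0.076) were lost. Of the 3 higher with YTHDF1 than with YTHDF3 it left Nlgn3 (2.01) and Lrrtm4 (2.72), where 7.06% of all genes were, and Nrxn3 (1.39, adjusted p = 0.0545) was lost.

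**Figure D4:**
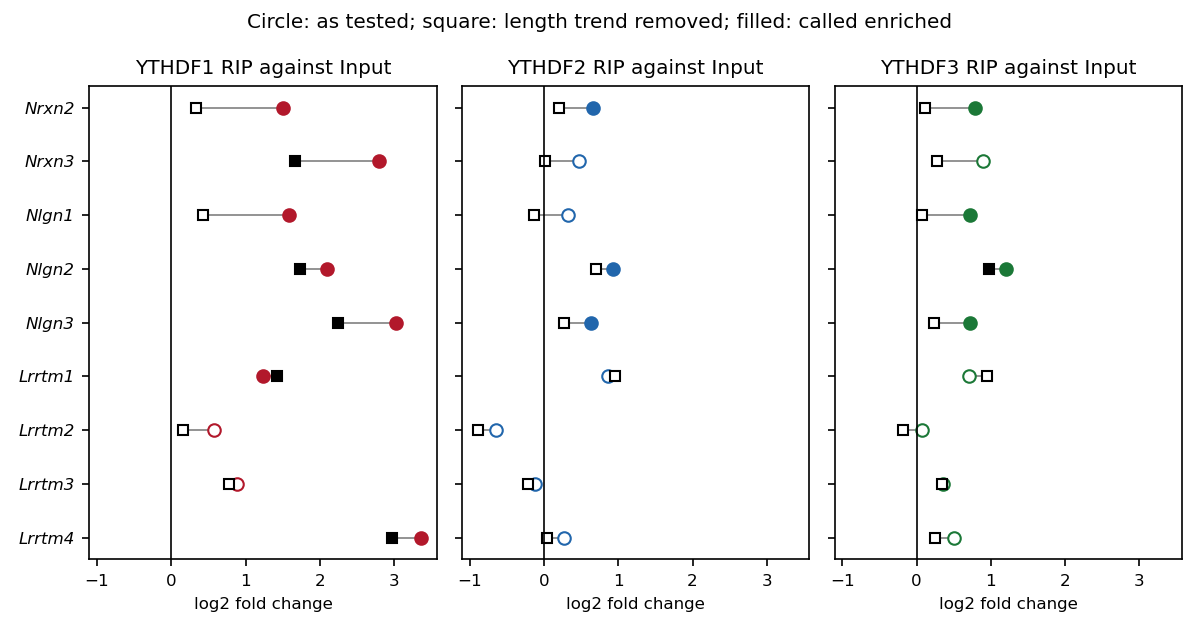
Log2 fold change over Input of each mRNA (horizontal axes) in each RIP, as tested (circles) and with each library's length trend removed (squares). Filled symbols were called enriched. The long mRNAs Nrxn2 and Nlgn1 moved from 1.51 to 0.33 and from 1.59 to 0.43 in the YTHDF1 RIP, while the shorter Lrrtm1 moved from 1.24 to 1.42.

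Genes whose products work with these adhesion proteins held both enriched and depleted members. They were listed with earlier results of these data known, so the shares are descriptions. Of 26 listed ligands, co-receptors and intracellular partners, 25 were tested, and 13 were enriched and 2 depleted with YTHDF1, 0 and 1 with YTHDF2, and 4 and 2 with YTHDF3. The enriched shares were 52%, 0% and 16%, beside 27.2%, 15.7% and 16.4% of all genes, and the median log2 fold changes were 0.88, 0.06 and 0.25. With YTHDF2, where edgeR called 0, an unadjusted p under 0.05 was reached by 1 higher gene and DESeq2 called 0. With YTHDF1, Nxph1, a secreted neurexin ligand, stood highest (3.39 ± 0.38, adjusted p = 3.89e-05), followed by Mdga2, which binds neuroligins and blocks their contact with neurexins (3.15 ± 0.34, adjusted p = 3.02e-05). With YTHDF3, Mdga1 (1.28 ± 0.42, adjusted p = 0.0305) and Nxph1 (1.1 ± 0.35, adjusted p = 0.0275) stood highest. Lin7a, an adaptor of the complex that binds the neurexin tail inside the terminal, was depleted in all 3 RIPs, with log2 fold changes of −1.43 ± 0.43, −2.71 ± 0.46 and −1.80 ± 0.43 (adjusted p = 0.0147, 0.00127 and 0.00617). With library size alone the partners' counts of enriched and depleted genes were 8 and 2 with YTHDF1 and 10 and 1 with YTHDF3. Of all genes, 18% and 28.2% were then enriched. With the length trend removed these counts were 9 and 1, and 0 and 1, where 22.2% and 15.2% of all genes were enriched. The paired fit of the YTHDF3 RIP and Input gave 13 and 3 with YTHDF3, where it called 36.3% of all genes enriched. Leaving out a library moved the 4 enriched genes to 0 (Input replicate 2) or 2 (Input replicate 3, YTHDF3 replicate 1 or YTHDF3 replicate 2). With YTHDF1, the fit of the YTHDF1 and Input libraries alone with the replicate block gave 4 and 1, where 14% of all genes were enriched.

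Other synaptic adhesion genes were mostly enriched with YTHDF1. This list, too, was made with earlier results of these data known, so its shares are descriptions. Of 30 listed genes of the LRFN, SLITRK, receptor phosphatase and related families, 29 were tested, and 24, 9 and 19 were enriched with YTHDF1, YTHDF2 and YTHDF3, with none depleted. These are 82.8%, 31% and 65.5% of them, beside 27.2%, 15.7% and 16.4% of all genes. The YTHDF3 count fell to 9 without Input replicate 2 and to 12 without Input replicate 3, YTHDF3 replicate 1 or YTHDF3 replicate 2. It was 25, with 1 depleted, in the paired fit, where 36.3% of all genes were enriched. Their median log2 fold changes were 2.05, 0.57 and 0.93, beside 1.59, 0.47 and 0.72 for the 9 mRNAs. Ptprd, a presynaptic receptor phosphatase, stood highest with YTHDF1 (4.35 ± 0.34, adjusted p = 5.09e-06), above its postsynaptic partner Il1rapl1 (3.93 ± 0.46, adjusted p = 5.01e-05). Slitrk1 stood highest with YTHDF2 (1.83 ± 0.22, adjusted p = 0.000301) and YTHDF3 (1.42 ± 0.22, adjusted p = 0.000384), followed by Lrfn5 with YTHDF2 (1.52 ± 0.20) and Lrfn1 with YTHDF3 (1.26 ± 0.22). With the length trend removed, 21 of them were enriched and 3 depleted with YTHDF1, 10 and 1 with YTHDF2, and 13 and 0 with YTHDF3, where 22.2%, 13% and 15.2% of all genes were enriched.

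The gene whose log2 CPM ran most like that of each mRNA over the 12 libraries was found among 13007 genes. It was Tenm2, a teneurin, for Nrxn2 (Pearson r = 0.988), Kcnj3, a potassium channel subunit, for Nrxn3 (0.991), Aff3 for Nlgn1 (0.986), and Mtor, a growth-controlling kinase, for Nlgn2 (0.995). For Nlgn3 it was Gm21986 (0.998), with which it shares reads. For the LRRTM mRNAs it was Gpr162 for Lrrtm1 (0.985), Tbc1d5 for Lrrtm2 (0.969), Tunar for Lrrtm3 (0.954) and Gm44742 for Lrrtm4 (0.974). The 12 points share groups, lysates and depth, and these values are descriptions.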

How the data were processed

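RNA-seq libraries of 12 samples (3 of Input and 3 of each RIP) were analysed from day 14 cultures. The authors deposited raw counts per gene, made with UMI-tools 1.1.1, cutadapt 3.4, STAR 2.7.7a (mm10, that is GRCm38) and featureCounts 2.0.1 with Ensembl release 97, strand setting 2. Per the file header, reads overlapping several genes were counted for each, and all alignments of multi-mapping reads were counted. The authors' DESeq2 tables hold their own fold changes and p-values, of which none was used; they served for gene names. Per-sample columns left unused numbered 0.

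Genes with a mean of at least 10 normalized counts entered 1 edgeR 4.0.16 quasi-likelihood fit of the 4 groups (R 4.3.3, TMM after the filter, common biological coefficient of variation 0.323), checked on simulated counts. The standard error is the size of the log2 fold change over the square root of F. Log2 CPM used a prior count of 2. Counts of 6020072 to 38909592 per library gave each member 19 counts or more in every library. Libraries of 1 group correlated at 0.931 to 0.981 and none were identical. Replicates are separate cultures by the study's methods.

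Members and gene lists were chosen with earlier results of these data known. Named were all members, the most similar gene of each member and some overlapping genes. Per list and RIP, the 2 highest and the 1 lowest called genes with a mean of at least 50 normalized counts were named. Further genes share exonic bases with a member on the opposite strand. These are A830092H15Rik (9.16% of the Nlgn1 exons), Slc22a12 (4.94%) and Gm14964 (1.5%) with Nrxn2, and Gm37980 (3.48%) with Nrxn3. Ctnna1, inside which Lrrtm2 lies, shares 1.58% of its exons. Same-numbered libraries were compared by the correlation of their deviations from group means, which was 0.528 to 0.829 for the YTHDF3 RIP and Input. No other pair of groups exceeded 0.1 for all 3 numbers. For the YTHDF1 and YTHDF2 RIPs it was 0.059, 0.544 and 0.348 for replicates 1, 2 and 3. In the remaining pairs it ran from −0.348 to 0.178. The study's methods describe 1 lysate per replicate, and the labels do not tie the number to it. Alternatives were other scalings, filters, DESeq2 1.42.0, the replicate block, a length trend removed by loess (span 0.3), fits of 2 groups and omission of each library.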

Additional observations from a re-analysis of the deposited data

Results flagged for a closer look

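Differences between RIPs were found by the direct test of the YTHDF libraries against each other (edgeR, log2 fold change with adjusted p). YTHDF1 exceeded YTHDF2 for Lrrtm4 by 3.09 (adjusted p = 0.000169), Nlgn3 by 2.40 (adjusted p = 2.24e-05), Nrxn3 by 2.32 (adjusted p = 0.00774), Nlgn1 by 1.27 (adjusted p = 0.00148), Lrrtm2 by 1.21 (adjusted p = 0.0467) and Nlgn2 by 1.16 (adjusted p = 0.00759). YTHDF1 exceeded YTHDF3 for Lrrtm4 by 2.86 (adjusted p = 0.000387), Nlgn3 by 2.32 (adjusted p = 2.59e-05) and Nrxn3 by 1.89 (adjusted p = 0.0248). In each case except 1 (Lrrtm2 against YTHDF2) the mRNA was also enriched over Input with YTHDF1. Lrrtm4 and Nlgn3 kept these calls in all 24 alternatives. Removing the length trend ended those of Nlgn1 (0.55) and Lrrtm2 (1.04) against YTHDF2 and of Nrxn3 against YTHDF3 (1.39).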

How the results depend on the processing

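Among the results against Input, Nlgn3, Lrrtm4, Nlgn2 and Nrxn3 were called with YTHDF1 in all 24 alternatives. Leaving out 1 library gave 7 to 8 members called for YTHDF1, 0 to 4 for YTHDF2 and 3 to 5 for YTHDF3. Between RIPs it gave 3 to 7 (YTHDF1 against YTHDF2), 2 to 4 (YTHDF1 against YTHDF3) and 0 to 0 (YTHDF2 against YTHDF3). Shares of all genes tested that were called alike are given in parentheses. The YTHDF2 count of 3 (15.7%) was 1 with TMM before the filter (12.1%) and 0 without a filter (4.58% of 44478 genes). It was 0 with the length trend removed (13%) and 1 with the replicate block as well (13.1%). With the replicate block in a fit limited to both groups it was 1 (11.7%). The YTHDF3 count of 4 (16.4%) was 1 with the length trend removed (15.2%) and 2 with the block as well (15.1%). It was 8 with the replicate block in the fit limited to both groups (36.3%). The YTHDF1 against YTHDF2 count of 6 (11.4%) was 3 with library size alone (6.24%). The causes were not tested. With the replicate block in the fit of all 12 libraries, the only member to change its call was Lrrtm2 (YTHDF1 against YTHDF2, 1.22, adjusted p = 0.0606). Library size alone put the median of all genes at −0.38, 0.09 and 0.38 with YTHDF1, YTHDF2 and YTHDF3, against 0.02, 0.02 and 0.05.

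Reversed directions concerned uncalled differences. With library size alone, Lrrtm1 stood at −0.04 (YTHDF1 against YTHDF2), and Nrxn2 at 0, Lrrtm1 at −0.13, Lrrtm2 at −0.24 and Lrrtm3 at −0.15 (YTHDF1 against YTHDF3). For YTHDF2 against YTHDF3, Lrrtm1 stood at −0.10 with library size alone, −0.06 with TMM before the filter, −0.06 without a filter and −0.01 without YTHDF2 replicate 3. With the length trend removed, Nrxn2, Nlgn3 and Lrrtm1 stood there at 0.08, 0.03 and −0.01, and with the replicate block as well at 0.07, 0.04 and −0.03. Under the same settings, Nlgn1 stood at −0.13 and −0.12 in YTHDF2 against Input, Lrrtm2 at −0.18 and −0.17 in YTHDF3 against Input, and Nrxn3, with both, at −0.03 in YTHDF2 against Input. Leaving out 1 library gave, in YTHDF2 against Input, −0.63 to 0.17 for Lrrtm3 (above 0 without Input replicate 2, at 0.04, or YTHDF2 replicate 2), −0.01 to 0.58 for Lrrtm4 (below 0 without YTHDF2 replicate 1) and −0.01 to 0.80 for Nrxn3 (below 0 without YTHDF2 replicate 3). It gave −0.10 to 0.31 for Lrrtm2 in YTHDF3 against Input (below 0 without Input replicate 3, at −0.05, or YTHDF3 replicate 1), −0.10 to 0.67 for Lrrtm2 in YTHDF1 against YTHDF3 (below 0 without YTHDF1 replicate 3) and −0.01 to 0.33 for Lrrtm1 in YTHDF2 against YTHDF3.

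Depth limits Lrrtm3 most, with 19 counts in its lowest library, and 3 libraries per group limit every test.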

Other observations

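The 9 mRNAs did not vary alike over the 12 libraries. The log2 CPM of Nrxn2 and Nlgn2 ran most closely together (Pearson r = 0.98), and that of Nlgn3 ran with Lrrtm4 (0.952) more closely than Lrrtm3 did with Lrrtm4 (0.614). Lrrtm1 and Lrrtm2, which are both postsynaptic partners of neurexins, had the lowest value of all pairs (0.307). The points share groups and depth, so these values are descriptions.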
